A study of Mus musculus with 12 samples.

Results

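The T helper 2 genes described here are the 7 genes Gata3, Il4, Il13, Il5, Areg, Il17rb and Ptgdr2, picked by gene symbol from the 55487 genes of the mouse count table. T helper 2 cells are CD4+ T cells that direct immunity to worms and allergic inflammation. Signals through the interleukin-4 receptor activate STAT6, which raises the transcription factor GATA3, and GATA3 opens the locus that holds the genes of interleukin-4, interleukin-13 and interleukin-5. Effector cells that have met antigen can express these cytokines, naive cells have not yet done so, and regulatory T cells, NKT cells and innate lymphoid cells use some of the same genes.

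The RNA came from CD4+ T cells sorted from mouse spleen and peripheral lymph nodes in 4 groups of 3 libraries. KO effector cells and WT effector cells were sorted as CD44-high, and KO naive cells and WT naive cells as CD44-low, among other surface markers. KO mice lack Rinl, which encodes an exchange factor for RAB5 family GTPases of early endosomes, and the comparison asks what Rinl does in these cells. No source used here gives the kind of Rinl allele, the strain or the age of the mice. The labels do not state whether each library was a separate mouse, so the p-values below measure only the spread between libraries, which may be technical.

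Libraries are called by the numbers in the table. KO effector libraries are 10, 11 and 12, WT effector libraries 4, 5 and 6, KO naive libraries 7, 8 and 9 and WT naive libraries 1, 2 and 3. Total counts ran from 11606251 to 24320247. Levels are given in CPM (counts made comparable by library size) and, where genes are compared with each other, in FPKM (which also divides by gene length). Rinl averaged 47.5 ± 1.80 CPM in KO effector cells and 449.6 ± 12.7 CPM in WT effector cells, and 33.0 ± 1.17 CPM in KO naive cells and 294.0 ± 7.58 CPM in WT naive cells (SD, n = 3 each). Cd4 lay between 933.7 and 1058 CPM in all 12 libraries. Cd44 was at 229 CPM in KO effector and 256 CPM in WT effector cells and at 18.9 CPM in KO naive and 18.8 CPM in WT naive cells. Of the 7 genes, 5 passed the filter on low counts and were tested, among 15905 genes in all, with edgeR's quasi-likelihood test. Il5 and Il13 did not pass it.

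The cytokine genes lie together on chromosome 11, Il4 at chr11:53602982-53618669 on the minus strand, Il13 at chr11:53631324-53634702 on the minus strand and Il5 at chr11:53720794-53725106 on the plus strand (GRCm38). Gata3 is at chr2:9857078-9890034 (minus strand), Areg at chr5:91139599-91148432 (plus strand), Il17rb at chr14:29996135-30008896 (minus strand) and Ptgdr2 at chr19:10937160-10942511 (plus strand). The promoter windows of the clustered cytokines, and of the 2 genes that differed between KO and WT effector cells, are shown as the sequence next to the starts of these transcripts, and no result rests on them. Each runs from 250 bases before the RefSeq start (GRCm38.p6) to 20 bases after it, 5′ to 3′ on the gene's strand. Capitals mark a GATA word (AGATAA or AGATAG, either of them with T as its first letter, or the reverse complement of any) or, in Areg, the cyclic AMP response word TGACGTCA.

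Il4, chr11:53618646-53618915 (minus strand): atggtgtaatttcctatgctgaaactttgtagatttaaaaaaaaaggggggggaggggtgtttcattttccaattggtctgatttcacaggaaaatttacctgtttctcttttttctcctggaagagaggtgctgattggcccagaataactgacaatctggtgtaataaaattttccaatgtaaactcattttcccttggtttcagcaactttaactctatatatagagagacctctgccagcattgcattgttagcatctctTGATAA

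Il13, chr11:53634683-53634952 (minus strand): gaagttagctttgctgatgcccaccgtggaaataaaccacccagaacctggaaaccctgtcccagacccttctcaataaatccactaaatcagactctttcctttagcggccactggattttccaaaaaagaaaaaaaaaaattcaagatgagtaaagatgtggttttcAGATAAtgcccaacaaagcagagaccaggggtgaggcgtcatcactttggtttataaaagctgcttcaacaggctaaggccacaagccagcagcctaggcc

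Il5, chr11:53720544-53720813 (plus strand): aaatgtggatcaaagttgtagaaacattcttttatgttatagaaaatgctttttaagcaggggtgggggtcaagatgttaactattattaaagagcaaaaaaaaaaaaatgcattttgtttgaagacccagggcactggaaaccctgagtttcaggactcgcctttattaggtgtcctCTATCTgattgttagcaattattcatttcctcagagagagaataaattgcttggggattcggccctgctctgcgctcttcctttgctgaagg

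Areg, chr5:91139349-91139618 (plus strand): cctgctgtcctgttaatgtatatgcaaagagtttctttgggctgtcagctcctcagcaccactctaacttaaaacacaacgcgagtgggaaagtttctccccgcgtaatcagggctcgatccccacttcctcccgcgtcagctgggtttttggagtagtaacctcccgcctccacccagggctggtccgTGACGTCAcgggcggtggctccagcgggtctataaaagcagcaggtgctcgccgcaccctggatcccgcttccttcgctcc

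Il17rb, chr14:30008877-30009146 (minus strand): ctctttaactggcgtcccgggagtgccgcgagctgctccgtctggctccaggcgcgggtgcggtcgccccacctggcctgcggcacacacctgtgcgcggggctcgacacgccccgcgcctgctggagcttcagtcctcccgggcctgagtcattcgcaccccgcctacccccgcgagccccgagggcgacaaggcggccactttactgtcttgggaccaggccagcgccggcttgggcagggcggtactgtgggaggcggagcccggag

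Each of the 3 cytokine windows held 1 GATA word. It lay 14 bases after the start in Il4, 81 bases before the start in Il13, and 72 bases before the start in Il5, where the capitals read CTATCT because the word AGATAG is on the other strand. A RefSeq start of Il4 further into the gene has a window with a GATA word 80 bases before it, and the window of Gata3 itself has one 36 bases after its start. No GATA word was found in the windows of Areg, Il17rb and Ptgdr2. Over all 32851 windows of the table, searched on both strands from 250 bases before to 50 after the start, 29.8% held at least 1 GATA word, so 1 word in a window is common. The NFAT word GGAAAA, bound by a factor that T cell receptor signals activate, occurred 4 times in the Il4 window shown and 1 time in that of Il13, and 23.4% of all windows held it. The STAT6 word, TTC and GAA with 4 bases between them, occurred 1 time in the Il4 window, overlapping 1 of the NFAT words, and 6.95% of all windows held it. The Areg window held TGACGTCA 61 bases before the start, a word present in 1.79% of windows that was looked up after the sequence had been read. These matches describe the letters and show no binding.

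Gata3, the transcription factor that defines the T helper 2 fate, had the highest FPKM of the 7 genes in every group, and its mean levels were 123 ± 5.04 CPM in KO effector and 125 ± 5.69 CPM in WT effector cells (SD, n = 3 each). Its level was 119, 129 and 122 CPM in KO effector libraries, against 120, 131 and 125 CPM in WT effector libraries. It was 53.0, 50.8 and 48.7 CPM in KO naive libraries, against 49.6, 54.1 and 50.7 CPM in WT naive libraries. KO and WT overlapped in both populations, and effector libraries all lay above naive ones. The log2 fold change of KO over WT was -0.02 in effector cells (95% interval -0.12 to 0.08, adjusted p = 0.90) and -0.02 in naive cells (-0.13 to 0.10, adjusted p = 0.94). For effector cells the interval corresponds to a fold between 0.917 and 1.06.

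Gata3 was higher in effector than in naive cells, by 1.28 on the log2 scale in KO (adjusted p = 4.0e-16) and by 1.28 ± 0.0535 in WT (SE, adjusted p = 6.9e-16). GATA3 is also needed for the CD4 lineage as such, and Gata3 alone of the 7 genes had more than 1 FPKM in naive cells, at 15.8 FPKM in KO and 15.9 FPKM in WT. The gene models Gm13256 and 4930412O13Rik lie within its span on the other strand at under 1 CPM, and no source used here says whether reads were counted by strand.

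**Figure D1:**
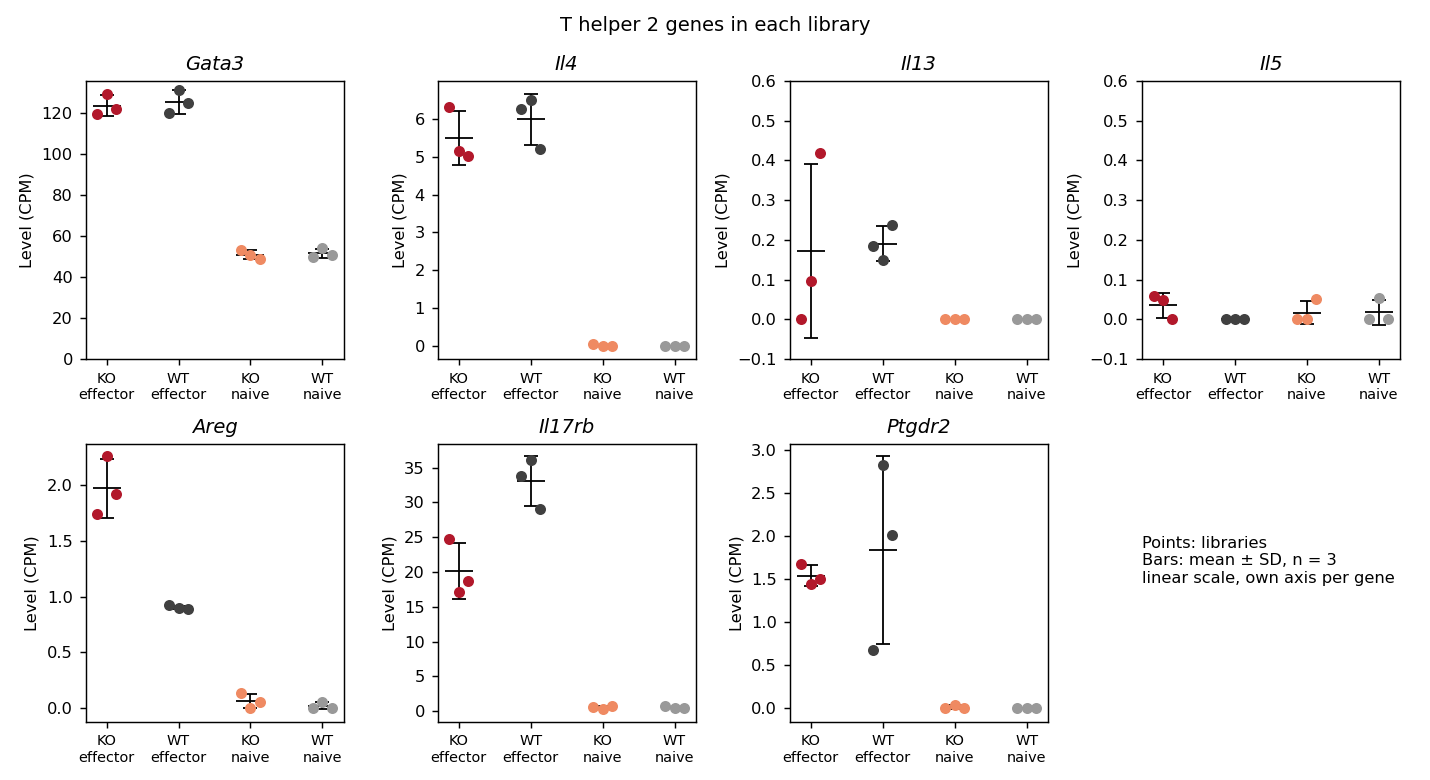
Level in CPM (linear axis, one axis per gene) of the 7 T helper 2 genes in the 12 libraries, with points for libraries and bars for mean ± SD of 3 libraries. Gata3 is present in all groups, the other genes are at or near 0 in naive cells, Areg is higher and Il17rb lower in KO effector than in WT effector libraries, and Il5 is at 0 to 1 count per library.

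Il4, which encodes the cytokine that drives T helper 2 differentiation and class switching of B cells, was an effector transcript. It had 6.31, 5.15 and 5.02 CPM in KO effector libraries, against 6.26, 6.49 and 5.21 CPM in WT effector libraries. In naive cells a single read was counted, in KO library 7, and none in WT. KO and WT effector libraries overlapped, and the log2 fold change of -0.11 (95% interval -0.47 to 0.24) had an adjusted p of 0.81.

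Effector cells held 276 Il4 reads in KO and 277 in WT, against 1 read in KO naive and 0 in WT naive cells. Taken against 3 counts for the whole WT naive group, Il4 in WT effector cells was at least 98.6-fold higher. In KO the ratio of effector to naive was 366, with a counting interval of 65.1 to 14490. Such intervals and floors cover counting error only.

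Il13, whose cytokine drives mucus production and shares a receptor chain with interleukin-4, was close to the limit of detection. Its counts were 0, 2 and 5 reads in KO effector libraries, against 3, 2 and 4 reads in WT effector libraries, and 0 in all 6 naive libraries. The sums were 7 reads in KO effector (95% exact Poisson interval 2.81 to 14.4) and 9 reads in WT effector cells (4.12 to 17.1). These intervals overlap widely, and a difference was not detectable at this depth. No fold against naive cells is given, since the reads are few and 5 of the 7 in KO effector cells came from library 12.

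Il5, the growth factor of eosinophils, gave 2 reads in KO effector, 0 in WT effector, 1 in KO naive and 1 in WT naive cells, so no group stood above the floor of 3 counts. A count of 0 in WT effector cells allows a level of up to 0.0644 CPM. The 3 clustered cytokine genes were thus unequal in these freshly sorted cells. Il4 was at 5.57 FPKM in KO effector and 6.05 FPKM in WT effector cells, Il13 at 0.142 and 0.157 FPKM in the same order, and Il5 at 0.0229 and 0 FPKM.

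Areg encodes amphiregulin, an epidermal growth factor family ligand linked to tissue repair and made by T helper 2 cells, innate lymphoid cells and some regulatory T cells. Its level was 1.74, 2.26 and 1.93 CPM in KO effector libraries (30, 47 and 23 reads), against 0.921, 0.895 and 0.889 CPM in WT effector libraries (15, 12 and 15 reads). All 3 KO libraries lay above all 3 WT libraries. The log2 fold change was 1.13 ± 0.315 (95% interval 0.48 to 1.79), a fold of 2.20, with an adjusted p of 0.049 by edgeR's quasi-likelihood test. The call stands at the threshold and rests on 100 reads in KO and 42 in WT effector cells. It was lost on leaving out any library but KO naive library 8. The adjusted p ran from 0.0467 to 0.251 over the 12 omissions and was highest without KO effector library 11, where the log2 fold change was 1.01. The call was lost with only the effector groups in the fit (0.055) and on the scale log2(FPKM + 0.1) (0.0825). The naive groups had 4 reads in KO and 1 in WT.

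Between populations, Areg had 100 reads in KO effector and 4 in KO naive cells. In WT the reads were 42 in effector and 1 in naive cells, a ratio of 44.8 with a counting interval of 7.62 to 1812. Areg passed the filter on low counts only through effector cells, so no test is given for this contrast.

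Il17rb encodes a subunit of the receptor for interleukin-25, an epithelial cytokine that stimulates type 2 cells, and it also marks a subset of NKT cells. It fell in KO effector cells, to 24.7, 17.1 and 18.7 CPM, against WT effector levels of 33.8, 36.2 and 29.1 CPM. No KO library reached the lowest WT library. The log2 fold change was -0.71 ± 0.122 (95% interval -0.96 to -0.45), a fold of 0.613, with an adjusted p of 0.0028. The call was kept without any 1 of the 12 libraries (adjusted p up to 0.0167), and was lost on the scale log2(FPKM + 0.1), where the adjusted p was 0.16.

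In naive cells Il17rb was close to 0, at 0.647, 0.297 and 0.717 CPM in KO libraries, against 0.683, 0.483 and 0.497 CPM in WT libraries. These overlapped, and the log2 fold change of -0.05 had a wide interval of -0.99 to 0.89 (adjusted p = 0.99). The difference of the KO effects, effector minus naive, was -0.66 with an adjusted p of 0.71, so the fall in effector cells was not shown to differ from the naive effect. Il17rb was higher in effector than in naive cells by 5.20 ± 0.215 on the log2 scale in KO (SE, adjusted p = 3.2e-14) and by 5.85 ± 0.217 in WT (adjusted p = 6.3e-15). The gene's span overlaps Actr8 on the other strand, which was at 45.0 CPM in KO effector and 46.7 CPM in WT effector cells and at 45.9 CPM in KO naive and 43.0 CPM in WT naive cells. Whether reads of Actr8 were counted for Il17rb was not tested.

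Ptgdr2 encodes CRTH2, the prostaglandin D2 receptor used to identify T helper 2 cells. It had 1.68, 1.44 and 1.51 CPM in KO effector libraries, against 0.675, 2.83 and 2.01 CPM in WT effector libraries. The WT libraries lay on both sides of the KO libraries, and WT library 4 was the lowest of the 6. The log2 fold change was -0.23 (adjusted p = 0.83), on 77 reads in KO and 83 in WT effector cells. The 95% interval of the fold was 0.499 to 1.47, so a large fall and a moderate rise both lie within it. Ccdc86, which overlaps Ptgdr2 on the other strand, was at 16.9 CPM in KO effector and 17.2 CPM in WT effector cells and at 18.5 CPM in KO naive and 18.6 CPM in WT naive cells. Ptgdr2 had 1 read in KO naive and 0 in WT naive cells. Effector exceeded naive by a ratio of 102 in KO (counting interval 17.8 to 4081) and by at least 29.5-fold in WT.

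Of the 5 tested genes, then, 1 was called higher (Areg) and 1 lower (Il17rb) in KO effector than in WT effector cells, where 3.16% of all tested genes were called in either direction, 1.45% higher and 1.72% lower. In naive cells edgeR called 0 of the 5 between KO and WT, where 1.18% of all tested genes were called, 0.679% higher and 0.497% lower. With edgeR, DESeq2 and limma-voom alike, 0 of the 5 had an unadjusted p below 0.05 there. Il4, Areg and Ptgdr2 had 0 to 4 reads per naive group, too few to show a difference. Their outcome in naive cells was thus fixed by depth, and the counts of 0 speak only of Gata3 and Il17rb. For the difference of the KO effects edgeR called 0 of the 5, against 0.145% of all tested genes (0.0189% higher and 0.126% lower). Again 0 had an unadjusted p below 0.05 with each of these 3 tools. For Il4, Areg and Ptgdr2 this difference rests on the same few naive reads. In effector against naive cells 5 of 5 were called higher in KO, where 58.4% of all tested genes were called, 31.6% higher and 26.8% lower. In WT 5 of 5 were called higher too, where 56.2% of all tested genes were called, 30.2% higher and 25.9% lower. Il4, Areg and Ptgdr2, with 0 to 4 reads per naive group, could pass the filter on low counts only through effector cells, so their calls there were fixed by the filter and carry no weight.

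**Figure D2:**
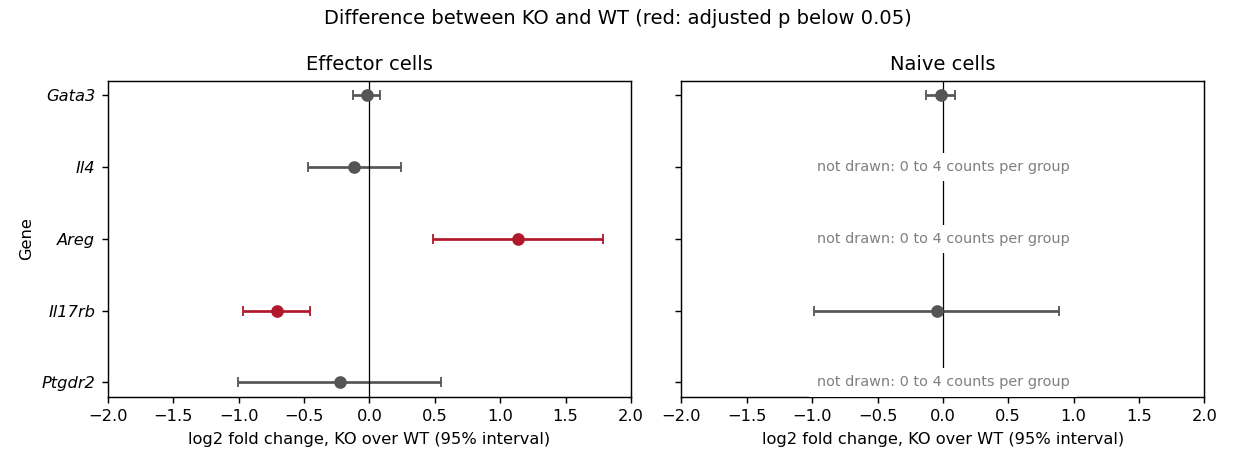
Log2 fold change of KO over WT with its 95% interval for the tested T helper 2 genes in effector cells (left) and naive cells (right). Areg lies above 0 and Il17rb below 0 in effector cells, the Gata3 intervals are narrow about 0, and 3 genes with 0 to 4 counts per naive group are not drawn.

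On the length-corrected scale the order of levels in KO effector cells was Gata3 (38.2 FPKM), Il17rb (9.58), Il4 (5.57), Areg (1.62), Ptgdr2 (0.582), Il13 (0.142) and Il5 (0.0229). The Areg and Ptgdr2 libraries did not overlap there, at 1.43 to 1.85 FPKM for Areg and 0.544 to 0.634 FPKM for Ptgdr2. In WT effector cells the order was Gata3 (38.7 FPKM), Il17rb (15.6), Il4 (6.05), Areg (0.737), Ptgdr2 (0.692), Il13 (0.157) and Il5 (0). There Areg, at 0.728 to 0.754 FPKM, lay inside the range of Ptgdr2, at 0.254 to 1.06 FPKM, so this pair did not differ beyond its spread. In naive cells Gata3 was followed by Il17rb, at 0.263 FPKM in KO and 0.262 FPKM in WT, and the other genes were below 0.05 FPKM in both.

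The effector sort holds several kinds of cells, and in bulk RNA fewer cells of a type and less RNA per cell cannot be told apart. Some genes of NKT and NK cells were lower in KO effector cells, as Il17rb was, and others did not pass the test. Zbtb16, which encodes PLZF, the transcription factor of NKT cells, had 31.7, 22.6 and 21.3 CPM in KO effector libraries, against 40.6, 50.6 and 37.0 CPM in WT effector libraries (log2 fold change -0.75, adjusted p = 0.024). Klrb1c, which encodes the NK1.1 receptor, fell by 0.47 on the log2 scale (adjusted p = 7.6e-04) and Klrk1, an activating NK receptor gene, fell by 0.53 (adjusted p = 0.037). Of the 6 tested genes of the NKT, NK and gamma-delta T cell list, 3 were called, all lower, where 1.72% of all tested genes were called lower. The median log2 fold change over the 6 was -0.49. Of those not called, Ncr1, a receptor gene of NK cells, was at 0.757 CPM in KO effector and 0.453 CPM in WT effector cells (log2 fold change 0.83, adjusted p = 0.44). Trdc, the constant segment of the delta T cell receptor chain, was at 5.55 CPM in KO effector and 6.67 CPM in WT effector cells (-0.27, adjusted p = 0.49). The list's summed level was 163, 123 and 125 CPM in KO effector libraries, against 197, 200 and 199 CPM in WT effector libraries, and none of its 7 matched genes was at 0 in effector cells. KO library 10 was the highest of the KO libraries both for this sum and for Il17rb.

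The ratio of Il17rb to Zbtb16 in FPKM was 1.96, 1.91 and 2.21 in KO effector libraries, against 2.10, 1.80 and 1.98 in WT effector libraries. The ratios of KO and WT overlapped, whereas the levels of both genes did not. This ratio was chosen after the values were seen, and the part of NKT cells in the Il17rb result was not tested. Without KO effector library 11 the adjusted p was 0.126 for Zbtb16 and 0.14 for Klrk1, and the Zbtb16 call was also lost without KO naive library 7, 8 or 9 (0.0503 to 0.0577). The Klrk1 call was also lost without libraries 1, 5, 6, 7, 8, 9 or 12.

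Some genes of regulatory T cells were higher in KO effector cells, as Areg was. Foxp3, their defining transcription factor, had 456, 483 and 408 CPM in KO effector libraries, against 393, 323 and 342 CPM in WT effector libraries (log2 fold change 0.35, adjusted p = 0.010). Without library 11 or library 6 the adjusted p of Foxp3 was 0.0656 and 0.0653. Ctla4, an inhibitory receptor gene, rose by 0.33 (adjusted p = 7.6e-04). Foxp3 and Ctla4 were the 2 called genes of the 8 on the list (median 0.23), where 3.16% of all tested genes were called. Of those not called, Il1rl1 went the other way, at 34.1 CPM in KO effector and 37.1 CPM in WT effector cells (-0.12). Il2ra was at 259 CPM in KO effector and 240 CPM in WT effector cells. The list's summed level was 1554 to 1810 CPM in KO effector and 1359 to 1531 CPM in WT effector cells. Areg in FPKM was 1.29%, 1.58% and 1.59% of Foxp3 in KO effector libraries, against 0.790%, 0.936% and 0.876% in WT effector libraries. All 3 KO shares lay above all 3 WT shares. This share too was chosen after the values were seen, and the part of regulatory T cells in the Areg result was not tested.

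**Figure D3:**
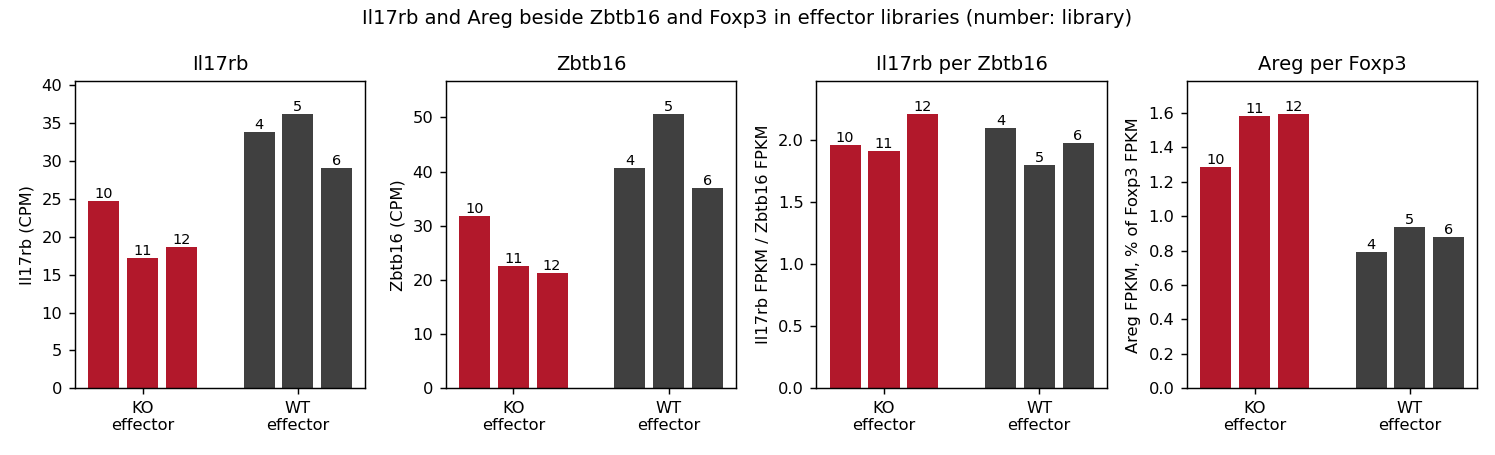
Bars give, for each effector library (library number on the bar), Il17rb and Zbtb16 in CPM, the ratio of Il17rb to Zbtb16 in FPKM, and Areg as a percent of Foxp3 in FPKM, with KO left of WT and all axes from 0. Il17rb and Zbtb16 are lower in all KO libraries while their ratio overlaps between KO and WT, and the Areg share is higher in all KO libraries.

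Other kinds of cells use T helper 2 genes too, and their markers were summed. The 10 basophil and mast cell markers summed to 2.02 to 4.06 CPM in KO effector and 2.07 to 2.70 CPM in WT effector cells, and Mcpt4 was at 0 in both. The 8 eosinophil markers summed to 5.10 to 5.44 CPM in KO effector and 3.87 to 5.15 CPM in WT effector cells. Most of that sum was Ccr3 alone, at 4.46 CPM in KO effector and 4.25 CPM in WT effector cells. Epx, which encodes eosinophil peroxidase, was at 0 in WT effector cells. The 8 markers of group 2 innate lymphoid cells summed to 298 to 353 CPM in KO effector and 323 to 423 CPM in WT effector cells, with Hs3st1 at 0 in both. Most of those genes, such as Rora, Klrg1 and Il1rl1, are also used by T cells. The sums of these 3 lists overlapped between KO and WT. The summed level of 8 B cell markers, of which Cd22 alone was called (lower), was above WT in every KO effector library, at 1119 to 1353 CPM, against 940 to 1114 CPM in WT effector cells, and their part in the results above was not tested.

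Among 26 genes of T helper 2 signalling and differentiation, 25 were tested. Of these, 2 were higher and 1 lower in KO effector than in WT effector cells, where 3.16% of all tested genes were called, with a median log2 fold change of 0.03 beside 0.00 over all tested genes. Batf, an AP-1 factor that works with IRF4, rose by 0.30 (adjusted p = 0.016) and Nfatc1, a calcium-regulated factor, rose by 0.23 (adjusted p = 0.015). Satb1, a chromatin organiser, fell by 0.24 on the log2 scale (adjusted p = 0.0070). All 3 calls were lost without KO effector library 11 (adjusted p 0.142, 0.126 and 0.0648 for Batf, Nfatc1 and Satb1), and those of Batf and Nfatc1 also without WT effector library 5 or 6 (0.069 to 0.0828). Stat6 was at 333 CPM in KO effector and 319 CPM in WT effector cells (log2 fold change 0.06, adjusted p = 0.52). Il4ra, the receptor chain shared by interleukin-4 and interleukin-13, was at 149 and 159 CPM (-0.09, adjusted p = 0.31). Maf, an activator of Il4, was at 370 CPM in KO and 279 CPM in WT effector cells, which did not pass the test (0.41, adjusted p = 0.13).

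Among the genes that oppose GATA3 and type 2 cytokines, 16 of 17 were tested. Of these, 1 was higher and 2 lower in KO effector cells (median -0.07), where 3.16% of all tested genes were called. Tbx21, which encodes T-bet, the T helper 1 factor, fell to 61.8 CPM in KO effector cells, against 93.3 CPM in WT effector cells (log2 fold change -0.59, adjusted p = 1.9e-04). Il12rb2, a chain of the interleukin-12 receptor, fell by 0.57 on the log2 scale (adjusted p = 0.0095; 0.0614 without library 11 and 0.0592 without library 6). Bcl6, the follicular helper factor, was at 64.4 CPM in KO effector and 51.0 CPM in WT effector cells (0.34, adjusted p = 0.17).

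Of 15 further secreted products of type 2 T cells, 7 were tested and 1 differed between KO and WT effector cells, where 3.16% of all tested genes were called. The called gene was Tnfsf11, which encodes RANKL and rose by 0.33 (adjusted p = 0.0059). Il10 was at 4.25 CPM in KO effector and 3.23 CPM in WT effector cells (0.43, adjusted p = 0.42), and Csf2, which encodes GM-CSF, at 1.06 and 1.91 CPM (-0.80, adjusted p = 0.24). Of 15 other receptors of type 2 cells, all tested, 1 was higher and 3 were lower (median -0.11), beside the same 3.16% of all tested genes. Tnfrsf4, the costimulatory receptor OX40, rose by 0.46 (adjusted p = 6.1e-04). S1pr1, the receptor for exit from lymph nodes, fell by 0.24 on the log2 scale (adjusted p = 0.0016), Il17ra fell by 0.20 (adjusted p = 0.016) and Il7r, the interleukin-7 receptor, fell by 0.42 (adjusted p = 0.037). Without library 11 the adjusted p was 0.0778 for Il17ra and 0.204 for Il7r, without library 6 it was 0.129 and 0.0994, and the Il7r call was also lost without libraries 7, 8, 9 or 12.

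Il1rl1, Ccr4 and Ccr8, which also mark T helper 2 cells, did not pass the test between KO and WT effector cells. Il1rl1, the interleukin-33 receptor ST2, was at 34.1 CPM in KO and 37.1 CPM in WT (log2 fold change -0.12, adjusted p = 0.73). Ccr4, a chemokine receptor of skin-homing and type 2 cells, was at 146 and 165 CPM (-0.18, adjusted p = 0.14), and Ccr8 at 29.8 and 21.9 CPM (0.45, adjusted p = 0.062).

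Within the families of the 7 genes, the interleukin-17 receptors had 2 of 6 tested genes lower in KO effector cells, Il17rb and its partner chain Il17ra, with a median of -0.22. Over all tested genes, 3.16% were called in effector cells, 1.45% higher and 1.72% lower. Il17re, a receptor chain for interleukin-17C, was at 6.73 CPM in KO and 7.81 CPM in WT effector cells (-0.23, adjusted p = 0.66). Of the epidermal growth factor family ligands 5 of 9 were tested, and Areg alone was called. Hbegf was at 2.80 CPM in KO and 2.71 CPM in WT effector cells (0.03, adjusted p = 0.98). Among genes of prostaglandin D2 synthesis and reception, Hpgds, a synthase, was at 6.81 CPM in KO and 5.08 CPM in WT effector cells (0.41, adjusted p = 0.13).

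In naive cells 2 of the 25 tested genes of T helper 2 differentiation were higher in KO than in WT, where 1.18% of all tested genes were called. Gfi1, a repressor that supports T helper 2 growth, was at 19.8 CPM in KO naive and 13.9 CPM in WT naive cells (0.52, adjusted p = 0.0014), and its call was kept in every alternative run. Il2rb, a chain of the interleukin-2 receptor, was at 107 and 87.6 CPM (0.30, adjusted p = 0.011), and lost its call without library 1, 2, 8 or 9 (0.0611 to 0.105). Among the opponents Il12rb1, a chain of the interleukin-12 receptor, rose by 0.43 (adjusted p = 0.048) and lost its call without library 1, 2, 3, 4, 6, 7, 8 or 10. S1pr1 fell by 0.22 on the log2 scale (adjusted p = 0.0051; 0.0556 without library 9 and 0.0517 without library 2) and Il7r fell by 0.52 (adjusted p = 0.025), a call lost without library 1, 3, 7, 8 or 9. Csf2rb, the common chain of the interleukin-5, interleukin-3 and GM-CSF receptors, was at 0.648 CPM in KO naive and 0.0809 CPM in WT naive cells (2.91, adjusted p = 0.013; 0.0529 to 0.0767 without library 1, 2 or 7).

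Between WT effector and WT naive cells, counts over these lists are not given, because genes near 0 in naive cells entered the test only through effector cells. Ccr4 was higher in effector cells by 7.50 on the log2 scale, at 165 CPM in WT effector and 0.895 CPM in WT naive cells. Penk, which encodes the precursor of enkephalins, was higher by 6.98 and Tnfsf11 by 4.37. The 15 further secreted products, these 2 among them, together summed to 2.95 to 3.68 CPM in WT naive libraries. Such folds rest on low naive levels, and no test is given for them. Il4ra went the other way, at 159 CPM in WT effector and 381 CPM in WT naive cells (-1.26). Stat6 was at 319 CPM in WT effector and 324 CPM in WT naive cells (-0.02, adjusted p = 0.71).

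The neighbours of the cytokine cluster were taken by position, all genes within 500 kb. Of 43 such genes 18 were tested, with a median of -0.03 in KO against WT effector cells. Of the 18, 2 were called, both lower, where 3.16% of all tested genes were called, 1.72% lower. Pdlim4, an adaptor of the actin cytoskeleton 330 kb from the cluster, was at 3.98 ± 0.264 CPM in KO effector and 7.85 ± 2.03 CPM in WT effector cells (SD, n = 3 each; log2 fold change -0.97, adjusted p = 0.0013). In naive cells it was at 74.3 CPM in KO and 73.3 CPM in WT (0.02, adjusted p = 0.96). Slc22a4, a carnitine and ergothioneine transporter gene 258 kb away, was at 3.34 CPM in KO effector and 6.68 CPM in WT effector cells (-1.01, adjusted p = 0.045), and lost its call without library 2, 5, 6, 8, 10, 11 or 12. Rad50, the DNA repair gene that lies between Il13 and Il5, did not pass the test in effector cells (0.09, adjusted p = 0.41). Irf1, an interferon response factor, was at 348 CPM in KO naive and 292 CPM in WT naive cells (0.25, adjusted p = 0.0052) and did not pass in effector cells (0.05, adjusted p = 0.64).

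**Figure D4:**
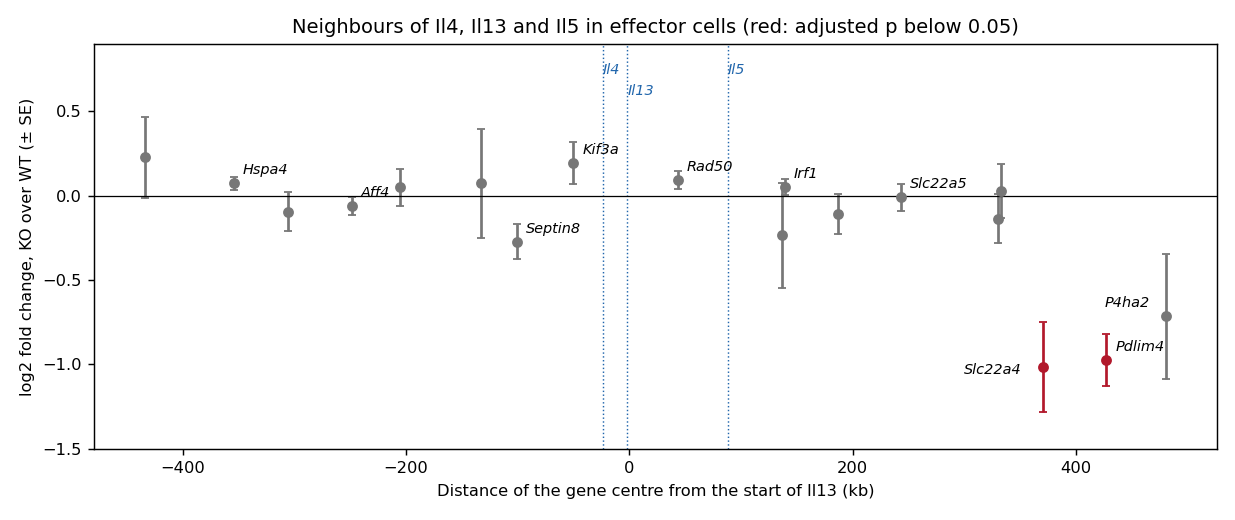
Log2 fold change (± SE) of KO over WT in effector cells for the 18 tested genes within 500 kb of the cytokine cluster, by distance of the gene's centre from the start of Il13 in kb, with dotted lines at Il4, Il13 and Il5. Pdlim4 and Slc22a4, on one side of the cluster, are the called genes, and the genes next to the cytokines lie near 0.

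Finally, the genes whose levels ran most like each T helper 2 gene over the 12 libraries were sought among 13919 tested genes with a mean of at least 1 CPM. Likeness was the root mean square difference of log2(CPM + 0.5) after centring each gene, so a smaller value is closer. The added 0.5 CPM shrinks the fold changes of genes near 0 in naive cells, such as Il4, Areg and Ptgdr2. Their likeness is therefore one of shrunken levels and not of fold changes. In WT, effector cells exceeded naive cells at least 98.6-fold for Il4 but 13.7-fold for Cd44, its closest gene. Gata3 was followed by Nucb1 (0.0506) and Ctsb (0.0647), Il4 by Cd44 (0.124) and Il2rb (0.146), and Areg by Arc (0.176) and Oas1a (0.188). The closest genes to Ptgdr2 were Gm9847 (0.207) and Cdkn1a (0.244).

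Il17rb ran most like Gm36723 (0.156), a long non-coding RNA on chromosome 12 at chr12:25303940-25471979 (plus strand), and Slamf7 (0.234), a receptor of the SLAM family found on NK and cytotoxic cells. Gm36723 was at 13.7 CPM in KO effector and 20.04 CPM in WT effector cells (log2 fold change -0.54, adjusted p = 0.0078). Slamf7 was at 55.0 CPM in KO effector and 73.2 CPM in WT effector cells (-0.41, adjusted p = 0.0050). Both genes were picked for likeness to Il17rb over these same libraries, so lower levels in KO effector cells were favoured by the choice. Their p-values are therefore no separate evidence beside that of Il17rb.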

How the data were processed

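Stranded poly(A) libraries were made from RNA of sorted cells, per the labels' protocols. The deposited tables give counts (whole numbers per gene) and FPKM for the same 12 libraries, per the file headers. The submitters' processing notes list STAR, Picard, DESeq2 1.30.0, mm10 and GRCm38, without saying what each did; no source used here names the counter or its strand setting. For 11921 genes with 20 or more counts, deposited FPKM were the counts over 1 length per gene and 1 factor per library, to within 1%. Column names show population and genotype but carry no replicate number of the labels. Within groups, the spread of libraries exceeded sampling noise (chi-square per gene 2.25 to 5.89), so none was treated as a copy of another.

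In R 4.3.3, edgeR 4.0.16 kept 15905 genes by filterByExpr with groups given. TMM factors lay between 0.968 and 1.04. A single robust quasi-likelihood model, with 1 coefficient for each group, was fitted to the 12 libraries (biological coefficient of variation 5.21%). Benjamini-Hochberg adjustment covered every tested gene, with 0.05 as threshold, and the SE is the absolute log2 fold change over the root of F. A floor is 3 counts summed over a group. The model was tested on simulated counts with known changes. Alternatives comprised size factors from DESeq2, DESeq2 1.42.0 itself, limma-voom (limma 3.58.1), dropping the filter, requiring a mean of 5 CPM, fitting the compared groups alone, limma on log2(FPKM + 1) and on log2(FPKM + 0.1), leaving out each library, and windows of 200 and 1000 kb.

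The members, gene lists, motifs and tests were chosen with earlier results of these data known. Named genes are the 7 members, Rinl, up to 4 called genes of each list or of the neighbours by p, the 2 most alike genes of each tested member, markers set beside a member's result, and always Foxp3, Tbx21, Bcl6, Stat6, Il4ra, Maf and Il1rl1. Other list genes that did not pass were named after their values were seen. Some genes that this rule names are not reported here. The symbols Mina and Tcrg-C1 were not matched. Promoter windows are those of RefSeq (GRCm38.p6).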

Additional observations from a re-analysis of the deposited data

Results flagged for a closer look

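The effect of Rinl loss differed between effector and naive cells for 2 of the genes named above, by the test of the difference itself. For Pdlim4, a neighbour of the cytokine cluster, the KO effect was lower in effector cells by -0.99 on the log2 scale (adjusted p = 0.019). For Il2rb, the interleukin-2 receptor chain, it was lower by -0.44 (adjusted p = 0.019), from levels of 1075 CPM in KO effector and 1184 CPM in WT effector cells and of 107 CPM in KO naive and 87.6 CPM in WT naive cells.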

How the results depend on the processing

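Depth limits Il5, Il13 and every naive comparison but that of Gata3. No paired analysis was possible because the columns carry no replicate number of the labels. In effector against naive cells the calls of Gata3 and Il17rb were kept in every alternative run, and those of the other members were set by the filter; with a mean of at least 5 CPM only 2 members were tested and called in WT, and 2 in KO. In KO against WT effector cells 2 members were called, against 1 with a mean of at least 5 CPM, 1 with only the groups compared, 1 with DESeq2, 0 on log2(FPKM + 0.1) and 1 to 2 with a library left out. Areg kept its call in 5 of 18 alternatives, with only the groups compared giving an adjusted p of 0.055, and DESeq2 gave it an unadjusted p of 0.0089 and no adjusted one. Il17rb kept its call in 19 of 20, at -0.89 to -0.59. Of 29 calls of other named genes between KO and WT, 24 were lost in at least 1 alternative, and no sign turned. Genes called between KO and WT effector cells numbered 503, against 959 with no filter, 230 with only the groups compared, 262 on log2(FPKM + 1), 139 on log2(FPKM + 0.1) and 194 to 662 with a library left out, fewest without library 11. In naive cells they numbered 187, against 501, 528, 40, 57 and 66 to 255 in the same order. For the difference of the KO effects they numbered 23, against 277 with no filter, 61 with DESeq2, 13 and 8 on the FPKM scales and 10 to 85 with a library left out. The causes were not tested.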
